A study of Mus musculus with 13 samples.

Results

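The 8 genes described here encode the enzymes that make, interconvert and reuse ketone bodies and the membrane carriers that move ketone bodies, lactate and pyruvate. They are Bdh1, Bdh2, Acat1, Oxct1, Aacs, Slc16a1, Slc16a6 and Slc16a7. They were taken as a fixed list from the 19938 genes named by a single symbol in the platform annotation, and all 8 were found, each with 1 probe set. Their RNA was measured in whole liver of male wildtype C57BL/6N mice aged 5 to 6 months. The 6 STZ mice had received streptozotocin intraperitoneally at 65 mg/kg on 5 consecutive days when 10 to 16 weeks old, to induce type 1 diabetes, and were killed 9 to 11 weeks later. Streptozotocin (STZ) is a glucose analogue that is toxic to pancreatic beta cells, the source of insulin. The 7 control mice were mock-injected with citrate buffer, while the design text of the series speaks of a standard diet for them. Each mouse gave 1 Affymetrix mouse gene array, and the values are log2 intensities.

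In the mitochondria of hepatocytes, acetyl-CoA from fatty acid oxidation is condensed to acetoacetate, which is reduced to beta-hydroxybutyrate, and both leave the cell for other organs. Insulin restrains the process, and its loss is a classical cause of raised blood ketone bodies. Hepatocytes have little of the transferase that activates acetoacetate for oxidation, so the liver exports ketone bodies and hardly burns them, but its cytosol can reuse acetoacetate for lipid synthesis.

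The tissue label was checked against 8 hepatocyte markers, whose mean log2 intensity lay between 12.98 and 13.07 in controls and between 13.01 and 13.04 in STZ livers. Albumin, their brightest, was 13.67 ± 0.01 (SD, n = 7) and 13.64 ± 0.05 (SD, n = 6). Pearson correlations between arrays across all named genes, which are not independent replicates, were 0.982 to 0.997. Of the 19938 genes, 1819 (9.12%) differed between STZ and control livers at an adjusted p under 0.05 in limma (Benjamini-Hochberg over all genes). The STZ livers had the higher level for 1014 (5.09%) and the lower level for 805 (4.04%).

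Among the ketone body enzymes, Aacs and Acat1 fell in STZ livers, and among the carriers Slc16a7 rose. Of the 8 genes, 1 was higher and 2 were lower at an adjusted p under 0.05, against 9.12% of all genes in either direction. With only the 9969 genes above the median level tested, 18.6% passed, the same 3 genes among them. Of the 8 genes, only Oxct1 and Slc16a6 lay below that level. The median difference (STZ minus control) of the 8 genes was -0.15 on the log2 scale, beside -0.01 for all genes. The other 5 genes did not pass. In whole tissue, fewer cells of a type and less RNA per cell cannot be told apart.

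**Figure D1:**
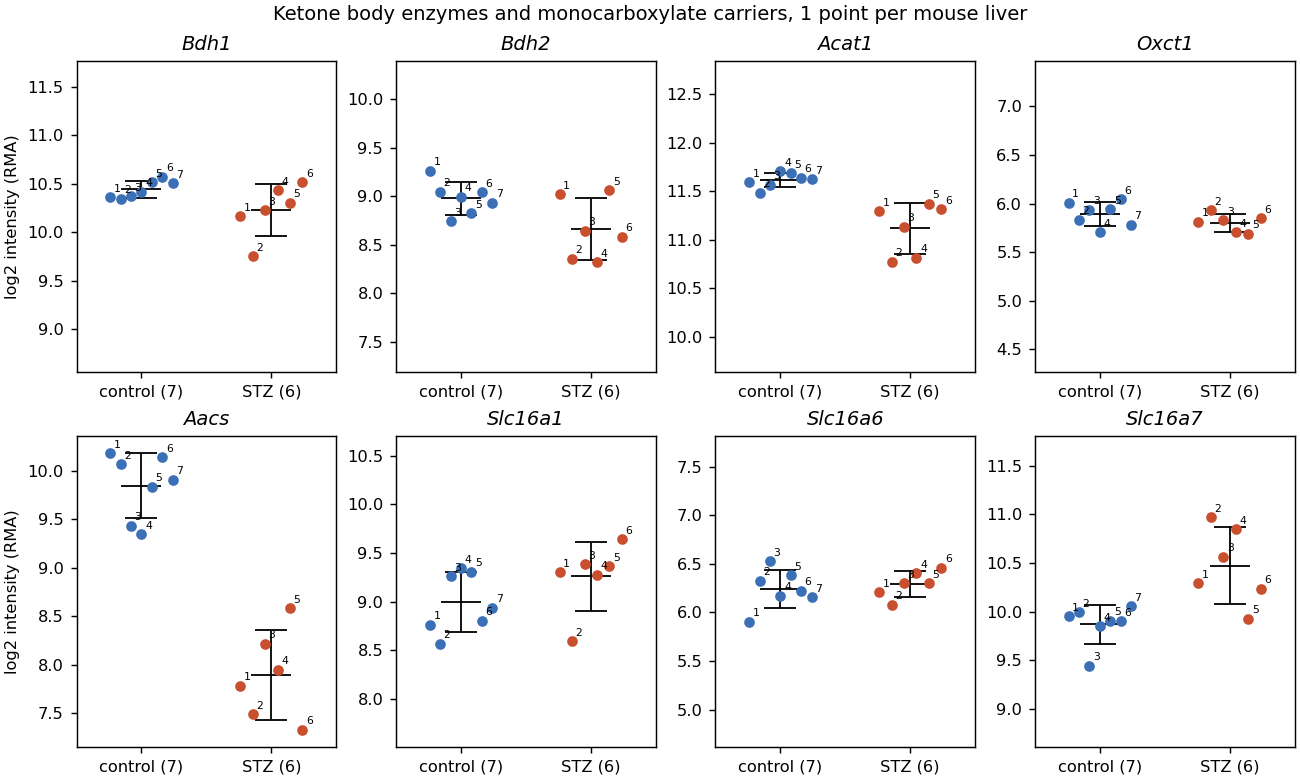
Log2 intensity of the 8 genes (one panel each, every panel spanning the same range of log2 units) in 7 control and 6 STZ livers; points are mice with their replicate numbers, and bars are the mean and SD. The STZ points of Aacs and Acat1 all lie below the control points, and those of Slc16a7 lie above the controls in 5 of 6 arrays.

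Aacs, acetoacetyl-CoA synthetase, activates acetoacetate in the cytosol for the synthesis of fatty acids and sterols. The log2 intensity of Aacs was lowest at 9.35, had a median of 9.91 and reached 10.18 in controls, and was lowest at 7.33, had a median of 7.87 and reached 8.59 in STZ livers. All 6 STZ arrays lay below all 7 controls, with STZ replicate 5 the closest. The mean fell from 9.84 ± 0.33 (SD, n = 7) to 7.89 ± 0.46 (SD, n = 6). The difference of Aacs was -1.95 ± 0.19 (SE of the fit) on the log2 scale, a 3.86-fold decrease (95% interval of the log2 difference -2.34 to -1.56, adjusted p = 7.67e-06 in limma). By p-value it stood at rank 31 of the 19938 genes. An exact 2-sided permutation test over all 1716 splits of the arrays gave 0.000583, the smallest p these group sizes allow. Non-overlapping groups with STZ lower were found for 1.56% of all genes.

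The sequence before the Aacs start is shown because Aacs had the largest difference of the 8 genes. RefSeq promoter windows were at hand for 5 of them (Bdh1, Bdh2, Oxct1, Aacs and Slc16a1), and the 250 bases before the start were searched on both strands. The Aacs window is chr5:125475623-125475872 (GRCm38.p6, plus strand), 5′ to 3′, with matches to TGTTTAC (core of a forkhead factor site, here on the minus strand) and to GGCGTGG in capitals.
Aacs: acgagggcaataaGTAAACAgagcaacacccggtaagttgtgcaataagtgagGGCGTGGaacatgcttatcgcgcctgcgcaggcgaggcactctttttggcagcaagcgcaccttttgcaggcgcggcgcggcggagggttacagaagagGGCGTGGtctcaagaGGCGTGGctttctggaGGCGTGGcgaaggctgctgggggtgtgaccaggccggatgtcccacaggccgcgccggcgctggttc
The forkhead letters begin 237 bases before the start, and 3.17% of the 32851 windows in the table held at least 1 match. GGCGTGG occurred 4 times, which held for 0.0426% of the windows (14), and 7.54% held at least 1. These letters were chosen after the sequence was seen, so their rarity is a description only. The E-box CACGTG (in 6.02% of windows), the nuclear receptor core AGGTCA (14%), the sterol element TCACNCCAC (1.05%), CCAAT (33.8%) and GGGCGG (32.7%) had no match in the Aacs window. Of these, Slc16a1 held 1 CACGTG and 1 GGGCGG, and Bdh2 held 1 CCAAT. A match of letters is not a bound site. Only these exact letters were searched, so no match does not mean that no such site is there.

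Acat1, the mitochondrial acetoacetyl-CoA thiolase, joins acetyl-CoA into acetoacetyl-CoA in ketone body synthesis, runs the reverse reaction in their use, and also serves isoleucine breakdown. The log2 intensity of Acat1 ran from 11.48 over a median of 11.63 to 11.71 in controls, and from 10.77 over a median of 11.21 to 11.37 in STZ livers. All 6 STZ arrays lay below all 7 controls, with STZ replicates 2 and 4 lowest at 10.77 and 10.81 and replicate 5 highest at 11.37. The mean fell from 11.61 ± 0.08 (SD, n = 7) to 11.12 ± 0.26 (SD, n = 6). The Acat1 difference of -0.50 ± 0.09 (SE) had an adjusted p of 0.00260 in limma and is a 1.41-fold decrease. The exact permutation test gave 0.000583 for Acat1, again the smallest possible. The SD among STZ livers was 3.48 times that among controls.

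Bdh1, the mitochondrial beta-hydroxybutyrate dehydrogenase, interconverts acetoacetate and beta-hydroxybutyrate. Its log2 intensity ran from 10.35 over 10.42 (median) to 10.57 in controls and from 9.75 over 10.27 (median) to 10.52 in STZ livers. The groups overlapped, although 4 of 6 STZ arrays lay below every control. The Bdh1 difference was -0.21 (95% interval -0.41 to -0.01) and did not pass (adjusted p = 0.223 in limma). STZ replicate 2 was the lowest array, and without it the difference was -0.11.

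Bdh2, a cytosolic beta-hydroxybutyrate dehydrogenase that has also been linked to iron handling, gave values of 8.74, 8.99 and 9.27 (lowest, median and highest) in controls and 8.32, 8.61 and 9.06 in STZ livers. Here too 4 of 6 STZ arrays lay below every control, while STZ replicates 1 and 5 lay among the controls. The Bdh2 difference was -0.32 (95% interval -0.57 to -0.06), with an adjusted p of 0.127 in limma and 0.0472 in the exact permutation test, which is not adjusted. Without STZ replicate 5 the difference was -0.39 and passed (adjusted p = 0.0315 in limma).

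Oxct1, the succinyl-CoA transferase that activates acetoacetate for oxidation outside the liver, was a dim probe set. Its values ran from 5.70 to 6.04 in controls (median 5.94) and from 5.69 to 5.93 in STZ livers (median 5.82), below the median level of all named genes (6.65). The groups overlapped across most of their range. The Oxct1 difference was -0.09 (95% interval -0.22 to 0.04, adjusted p = 0.481 in limma). Dim probe sets compress differences, and no detection calls were used, so a low level here does not mean that the RNA was absent.

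Slc16a7 encodes the high-affinity monocarboxylate carrier MCT2, which takes up lactate, pyruvate and ketone bodies. The log2 intensity of Slc16a7 ran from 9.44 over a median of 9.91 to 10.06 in controls, and from 9.93 over a median of 10.43 to 10.97 in STZ livers. In 5 of 6 STZ arrays it lay above every control, and the exception, STZ replicate 5, lay at 9.93 among the controls. STZ replicates 2 and 4 were highest at 10.97 and 10.85. The mean rose from 9.87 ± 0.20 (SD, n = 7) to 10.47 ± 0.40 (SD, n = 6). The Slc16a7 difference of 0.60 ± 0.15 (SE) is a 1.52-fold increase (95% interval of the log2 difference 0.29 to 0.91, adjusted p = 0.0143 in limma). The exact permutation test for Slc16a7 gave 0.00233. Of 9 macrophage and Kupffer cell markers, 4 were higher and 0 lower, beside 5.09% and 4.04% of all genes. All 9 had positive differences, and 8 had an unadjusted p under 0.05 in limma. The count of higher markers was 1 without STZ replicate 6 and 2 without STZ replicate 1, STZ replicate 4 or control replicate 7. It was 7 without control replicate 3. Their mean log2 intensity was 8.62 to 9.10 in controls and 8.81 to 9.44 in STZ livers, and their part in the Slc16a7 difference was not tested.

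Slc16a1 encodes MCT1, the widely expressed carrier of lactate, pyruvate and ketone bodies. Its log2 intensity ran from 8.57 over 8.94 (median) to 9.34 in controls and from 8.59 over 9.33 (median) to 9.64 in STZ livers. STZ replicates 3, 5 and 6 lay above every control, and STZ replicate 2, at 8.59, lay near the lowest control. The Slc16a1 difference was 0.26 (95% interval -0.07 to 0.59, adjusted p = 0.376 in limma). Without STZ replicate 2 it was 0.40, with an adjusted p of 0.0721 in limma.

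Slc16a6 encodes a carrier named MCT7 in much of the literature, which has been tied to the release of beta-hydroxybutyrate from zebrafish liver. Its values were 5.90, 6.23 and 6.53 (lowest, median and highest) in controls and 6.08, 6.30 and 6.46 in STZ livers, so the STZ arrays lay within the control range. The Slc16a6 difference was 0.05 (95% interval -0.14 to 0.24, adjusted p = 0.832 in limma), and its sign turned without control replicate 1 (-0.01). Slc16a6 and Oxct1 were the 2 of the 8 genes whose mean lay below the median gene.

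**Figure D2:**
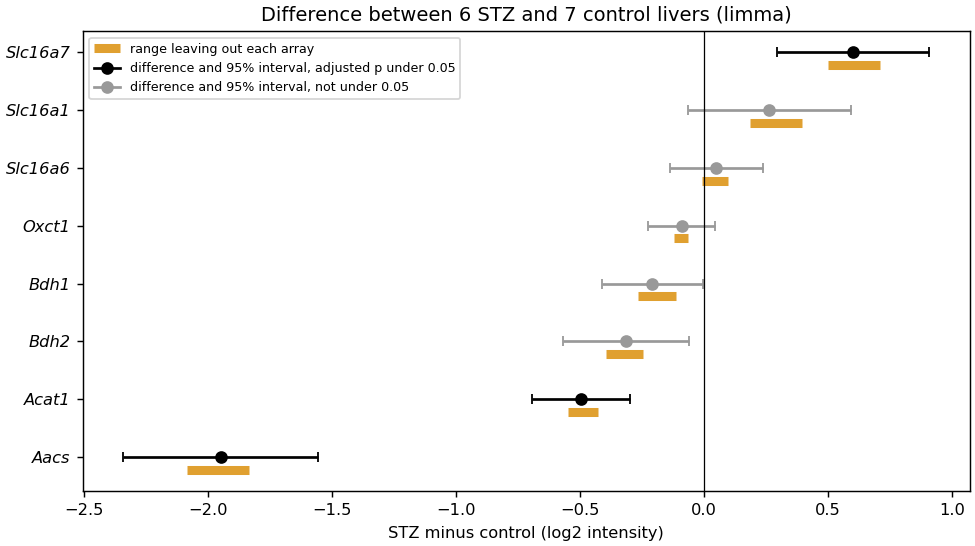
Difference STZ minus control in log2 intensity for each of the 8 genes, with the 95% interval of the limma fit (black where the adjusted p was under 0.05) and, as a bar beneath, the range when each of the 13 arrays was left out in turn. Aacs ranged from -2.09 to -1.84, Acat1 from -0.55 to -0.43 and Slc16a7 from 0.50 to 0.71 with 1 array left out.

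The distance from the controls varied among the STZ livers. The SD among STZ livers exceeded that among controls for 6 of the 8 genes (75%), beside 61.6% of all genes. A larger SD in STZ livers was thus not particular to the 8 genes. STZ replicate 2 was the highest or lowest STZ array for 6 of the 8 genes, being lowest for Acat1, Bdh1, Slc16a1 and Slc16a6 and highest for Slc16a7 and Oxct1. STZ replicate 5 was at an extreme for 5 of them, with the highest Aacs, Acat1 and Bdh2 and the lowest Slc16a7 and Oxct1, which placed it nearest to the controls for Aacs, Acat1 and Slc16a7. Such extremes were not counted over all genes. Without STZ replicate 5, 2168 of all genes passed in limma, beside 1819 with all arrays. Without any other single array, 1399 to 1818 passed. Of the STZ arrays, replicate 5 also lay nearest to the controls for Acss2, Slc16a5, Slc16a10 and Acacb, described below. For Ppara, Acaca and Slc16a13 another STZ array was nearer. The cause was not tested. Aacs, Acat1 and Slc16a7 passed in limma without any single array.

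Relations between the 8 genes were computed within each group, 28 pairs in controls and 28 in STZ livers. None of the 56 had an adjusted p under 0.05 (Benjamini-Hochberg over 56 exact permutation tests of Pearson's r), and 8 had an unadjusted p under 0.05. The lowest p was that of Acat1 and Slc16a7 in STZ livers, which ran in opposite order over the 6 arrays. Pearson's r was -0.96 (exact permutation p = 0.00139, adjusted 0.0778) and Spearman's rho -1 (exact permutation p = 0.00278, adjusted 0.156). Without STZ replicates 2 and 4, the farthest from the median of Acat1, r was -0.94 over 4 arrays. The rho of -1 over all 6 had already fixed the order of these 4, so this is no separate support. In the 7 controls r was 0.06 and rho -0.29 (exact permutation p = 0.878 and 0.556, adjusted 0.939 and 0.853), and the difference between the groups was not tested. Bdh1 and Slc16a6 ran in nearly the same order in STZ livers, with r of 0.97 (exact permutation p = 0.00278, adjusted 0.0778) and rho of 0.99 (exact permutation p = 0.00556, adjusted 0.156). For this pair r was 0.96 without STZ replicates 2 and 6, with the order again nearly fixed by the rho over all 6. In controls r was 0.04 (exact permutation p = 0.940) and rho 0.07 (exact permutation p = 0.906).

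**Figure D3:**
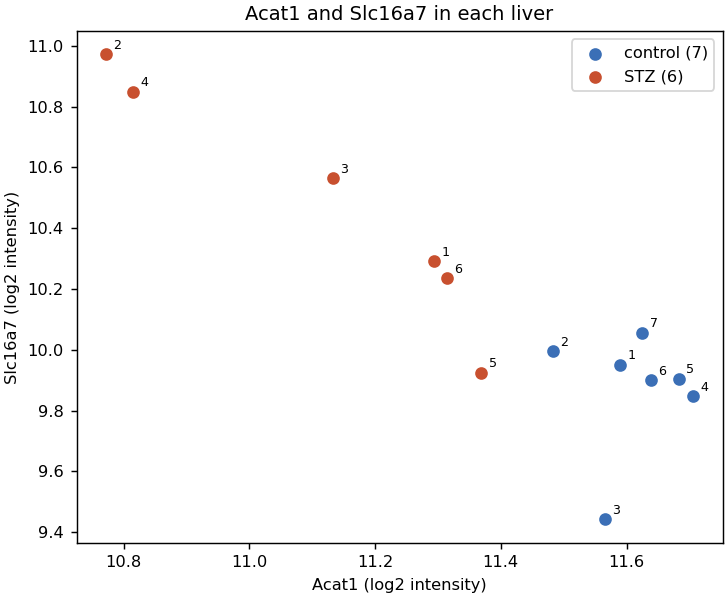
Log2 intensity of Slc16a7 against that of Acat1, 1 point per liver with its replicate number (7 control and 6 STZ). The STZ livers run from low Acat1 and high Slc16a7 (replicates 2 and 4) to replicate 5, which lies among the controls for Slc16a7 and below all of them for Acat1.

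For each of the 8 genes, the 3 named genes whose deviations from the group means followed it most closely over the 13 arrays were listed, as a description with no test. They were picked for the highest r among the named genes, so a high r alone is no sign of a relation. For Acat1 these were Cyp8b1 (r = 0.93), Cyp2c23 (0.93) and Elovl5 (0.92). Within the 7 controls alone r was 0.65, 0.18 and 0.48 for these genes, and within the 6 STZ arrays 0.96, 0.99 and 0.95. For Slc16a7 they were Fkbp5 (r = 0.93), AA986860 (0.93) and Slc35g1 (0.93), and for Aacs Ddhd2 (r = 0.90), Usp15 (0.89) and Prkaa2 (0.88). Of these 9 genes, Elovl5 (-0.74), Ddhd2 (-0.57) and Prkaa2 (-0.30) fell and Fkbp5 rose (0.74) in STZ livers on the log2 scale, with adjusted p up to 0.0458 in limma. Bdh1 was followed by Rtn4ip1 (r = 0.92), Ttyh2 (0.92) and Atg4b (0.91), and Bdh2 by Uox (r = 0.92), Qdpr (0.90) and Abca8a (0.89). Abca8a fell by 0.78 on the log2 scale (adjusted p = 0.0128 in limma). Slc16a1 was followed by Denn2b (r = 0.95), Eps8l2 (0.94) and Caprin1 (0.93). For the dim Oxct1 and Slc16a6 the correlations were 0.85 to 0.88 (Rnase6, Klhl38 and Hmga2) and 0.82 to 0.86 (Gpr19, Ssb and Llgl2).

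Other genes of ketone body and short-chain acyl-CoA metabolism were read from a list of 11, of which 7 were measured. The others were not analysed here. Of the 7, 2 were higher and 1 was lower, beside 5.09% and 4.04% of all genes, with a median difference of 0.00. Acss2, which activates acetate in the cytosol, ran from 11.53 to 11.90 in controls and from 9.91 to 11.35 in STZ livers, with no overlap. Acss2 fell by 1.07 ± 0.16 (SE) on the log2 scale (adjusted p = 0.000405 in limma). Acss3, a mitochondrial acyl-CoA synthetase (0.45 ± 0.13, adjusted p = 0.0331), and Acat3, a cytosolic thiolase whose probes can cross-hybridise with Acat2 (0.30 ± 0.08, adjusted p = 0.0311), were higher in limma. Neither call was firm, since each was kept in 6 of the 13 fits that left out 1 array. Acss3 was lost without control replicates 1, 2, 3 or 6 or STZ replicates 3, 5 or 6, and Acat3 without control replicates 1, 6 or 7 or STZ replicates 1, 3, 5 or 6. Hmgcs1, the cytosolic synthase of sterol synthesis, was -0.35 ± 0.19 and did not pass.

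Of 18 measured genes of monocarboxylate transport and lactate metabolism, 3 were higher and 1 was lower, beside 5.09% and 4.04% of all genes. Their median difference was -0.02. Slc16a5, which encodes MCT6, a carrier known mainly for drug transport, ran from 6.70 over 7.76 (median) to 8.57 in controls and from 8.11 over 9.55 (median) to 10.04 in STZ livers. It lay above every control in 5 of 6 STZ arrays and rose by 1.70 ± 0.29 (SE) on the log2 scale (adjusted p = 0.00133 in limma). Slc16a10, the aromatic amino acid carrier TAT1, ran from 8.63 to 8.86 in controls and from 9.00 to 9.74 in STZ livers, with no overlap (0.74 ± 0.10, adjusted p = 0.000140). Bsg, basigin, the glycoprotein that escorts MCT1 to the cell surface, ran from 11.27 to 11.45 in controls and from 11.49 to 11.66 in STZ livers. These groups did not overlap either, at a difference of 0.20 ± 0.05 (adjusted p = 0.0154 in limma). Non-overlapping groups with STZ higher were found for 2.30% of all genes. Slc16a13 fell by 0.32 ± 0.08 (adjusted p = 0.0137), with all 6 STZ arrays below the controls. Emb, embigin, the escort of MCT2, had a dim probe set and a difference of 0.18 ± 0.06 that did not pass (adjusted p = 0.0959 in limma), but did so without STZ replicate 3 (adjusted p = 0.0369). Without STZ replicate 5 the higher genes of this list were 4, with Mpc1 added (adjusted p = 0.0290 in limma). The lower genes were then 2, with Ldhd, a lactate dehydrogenase, added.

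Of 15 genes that control ketone body synthesis or the entry of fatty acids into mitochondria, 1 was higher and 5 were lower, with a median difference of -0.16. Of all genes, 5.09% were higher and 4.04% lower. All 15 but Fgf21 lay above the median level, where 18.6% of genes passed in either direction when only those were tested. Ppara, the fatty acid-sensing nuclear receptor that drives ketone body synthesis in fasting, ran from 10.67 to 11.13 in controls and from 9.94 to 10.37 in STZ livers, with no overlap. Ppara fell by 0.79 ± 0.09 (SE) on the log2 scale (adjusted p = 3.90e-05 in limma). The acetyl-CoA carboxylases Acacb (-1.37 ± 0.23) and Acaca (-0.59 ± 0.15), whose product malonyl-CoA blocks mitochondrial fatty acid entry, were lower. The carnitine-acylcarnitine carrier Slc25a20 (-0.31 ± 0.08) and the fasting transcription factor Creb3l3 (-0.25 ± 0.06) were lower with adjusted p of 0.0250 and 0.0215 in limma. The Slc25a20 call was lost in 5 of 13 fits (without control replicates 1, 4, 5 or 7 or STZ replicate 1), and the Creb3l3 call without STZ replicate 1. The coactivator Ppargc1a rose (0.91 ± 0.17). The PPARalpha target hormone Fgf21 was dim, at -0.16 ± 0.07 (adjusted p = 0.199), and passed without control replicate 6 (adjusted p = 0.0156). Sirt5 was -0.25 ± 0.08 and did not pass (adjusted p = 0.0503 in limma), but did so without STZ replicate 5 (adjusted p = 0.0267). None of the 3 ketone body and lactate receptors passed in limma, and 1 had an unadjusted p under 0.05, Hcar2 (0.36 ± 0.14, unadjusted p = 0.0226, adjusted p = 0.146). Hcar2 passed without STZ replicate 5 (adjusted p = 0.0280 in limma).

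**Figure D4:**
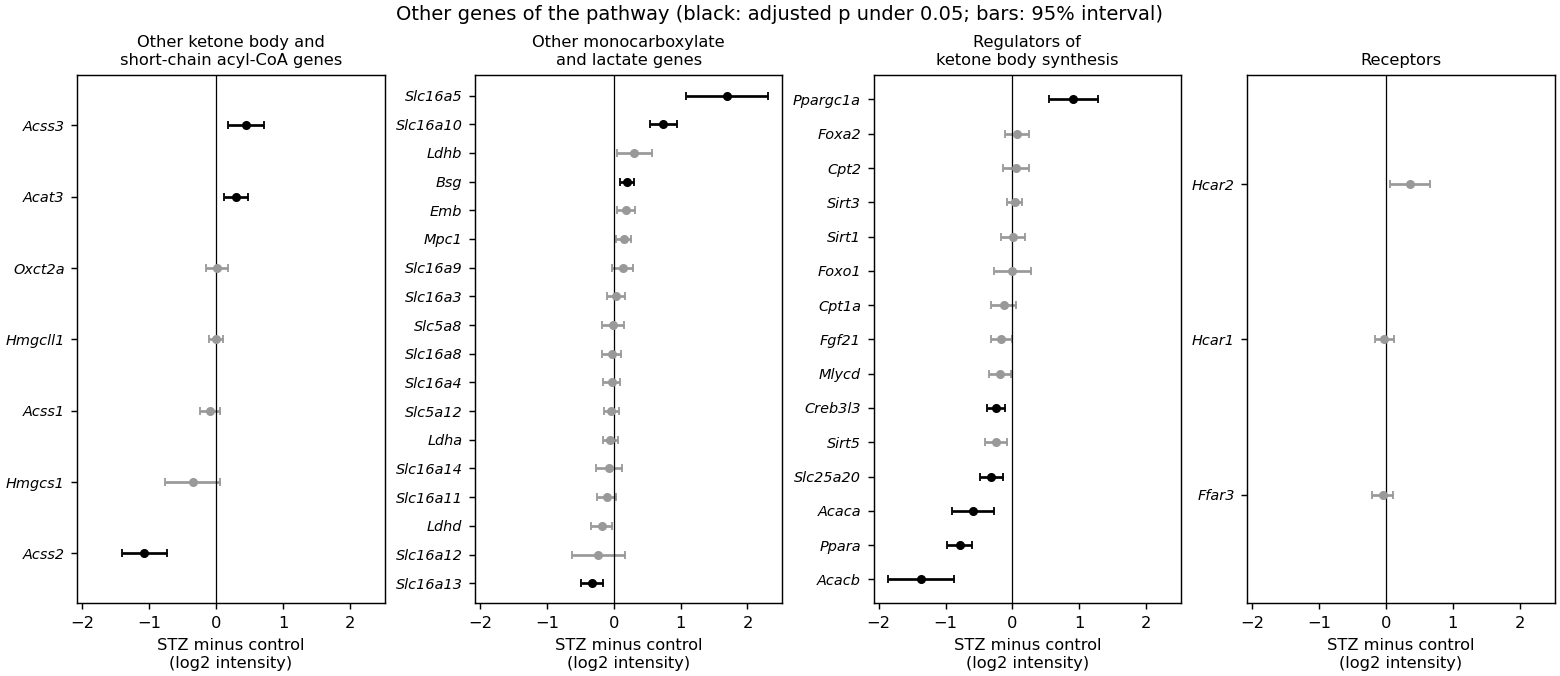
Difference STZ minus control in log2 intensity, with the 95% interval of the limma fit, for the measured genes of 4 lists: other ketone body and short-chain acyl-CoA genes (7), other monocarboxylate and lactate genes (18), regulators (15) and receptors (3). Black marks an adjusted p under 0.05; Slc16a5 lies farthest to the right and Acacb farthest to the left.

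Markers of other liver cells were read beside these values, and beside the 5.09% of all genes that were higher and the 4.04% that were lower. Sinusoidal endothelial markers were higher for 1 of 8 and lower for 0, with a list mean of 8.77 to 8.92 in controls and 8.85 to 9.05 in STZ livers. Stellate cell and fibroblast markers were higher for 1 and lower for 1 of 8 (8.32 to 8.57 and 8.33 to 8.62). None of 5 bile duct, 6 neutrophil and 7 muscle, fat and exocrine pancreas markers passed in limma (1, 2 and 3 had an unadjusted p under 0.05), and list means were 5.90 to 6.13 and 5.90 to 6.19, 5.22 to 5.42 and 5.31 to 5.55, and 5.99 to 6.33 and 5.92 to 6.14. Of 7 lymphocyte markers 1 was lower (5.46 to 5.67 and 5.34 to 5.79), of 2 erythroid markers 1, Alas2, was lower (8.56 to 8.87 and 7.39 to 8.43), and of the 8 hepatocyte markers 1 was higher and 2 were lower. Leaving out 1 array, counts of higher or lower markers moved by at most 1 in each of these lists. The part of these cells in the differences above was not tested.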

How the data were processed

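The authors deposited log2 intensities of 35556 probe sets on 13 arrays. The submitters' processing notes name RMA (robust multi-array average) and version 1.2 of Affymetrix Expression Console. RMA equalises the arrays, so an overall change in RNA amount is not seen. Their annotation version and genome build were not given in the sources used here. Platform annotation named 19938 genes through 21789 single-symbol probe sets, and the brightest probe set of a gene was kept, without a filter. limma 3.58.1 in R 4.3.3 compared STZ with control (lmFit and eBayes, 2-sided, Benjamini-Hochberg over all genes, 11 residual degrees of freedom). The number of arrays limits the precision. On simulated arrays the test recovered 84% of 100 genes changed by 0.5 log2 units and 98% of 100 changed by 1, with 9 false calls among 19938 genes.

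The 8 genes, lists and tests were chosen with earlier results of these data known. Named were the 8 genes, the passing genes of 4 pathway lists (up to 6 by absolute difference, or the smallest p), Bsg, Ppara and Fgf21 regardless of result, and 3 genes per member by likeness. Hmgcs1, Emb, Mpc1, Ldhd, Sirt5 and Alas2 were named after their values were seen, as were the within-group correlations and the letters GGCGTGG. Marker lists give counts and ranges. Alternatives were trend and robust variance, a filter on dim genes, averaged probe sets, median centring, a further quantile normalization, a replicate block, each array left out, only the 4 STZ arrays with consecutive label numbers, and an exact permutation test. Label numbers of the groups do not overlap, so a batch that followed them cannot be told apart from the treatment.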

Additional observations from a re-analysis of the deposited data

Results flagged for a closer look

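In STZ livers, Slc16a1 of replicate 2 (8.59) stood apart from the other 5 arrays, the nearest of which was 9.28, by a gap of 0.655 of the group's range. In controls, Slc16a7 of replicate 3 (9.44) stood apart from the other 6 arrays, the nearest of which was 9.85, by a gap of 0.661 of the range. Without these arrays the difference of Slc16a1 was 0.40 (adjusted p = 0.0721 in limma) and that of Slc16a7 0.53 (adjusted p = 0.0274 in limma). Chance flags about 1 in 20 groups, and 16 groups (8 genes in each of the 2 groups) were examined.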

How the results depend on the processing

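Aacs, Acat1 and Slc16a7 passed in limma under all 20 alternative fits, with adjusted p up to 0.000674, 0.00759 and 0.0399. The fit with averaged probe sets could not change their differences, since each of the 8 genes had 1 probe set. Leaving out each array in turn, 3 to 4 of the 8 genes and 1399 to 2168 of all genes passed. The ranges were -2.09 to -1.84 for Aacs, -0.55 to -0.43 for Acat1, -0.39 to -0.25 for Bdh2, -0.27 to -0.11 for Bdh1, -0.12 to -0.07 for Oxct1, 0.19 to 0.40 for Slc16a1, -0.0067 to 0.10 for Slc16a6 and 0.50 to 0.71 for Slc16a7. Bdh2 passed without STZ replicate 5 (-0.39), and in the exact permutation test its -0.32 had an unadjusted p of 0.0472. Slc16a6 turned to -0.0067 without control replicate 1. The cause was not tested. With the title number as a replicate block over 12 arrays, 1256 genes and the same 3 of the 8 passed, with Slc16a7 at 0.63 (adjusted p = 0.0224 in limma). Deviations of same-numbered arrays correlated above 0.1 in 2 of 6 pairs and best with their own number in 1. These correlations were not tested and cannot tell whether same-numbered arrays shared more than a number. With the 4 STZ arrays of consecutive label numbers, Slc16a7 was 0.80, Acat1 -0.61 and Slc16a1 0.14. Dim probe sets (Oxct1, Slc16a6) limit what differences could be seen.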
